A study of Rattus norvegicus with 3 samples.

Results

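Balloon injury of the rat common carotid artery was followed here to day 21, by comparing gene expression in 1 injured artery with that in 1 uninjured artery. The study hybridised total RNA of whole arteries from male Wistar rats to one-colour Agilent arrays after labelling with Cy3. Of 3 arrays considered from the series, the 2 compared here were those labelled uninjured and injured at 21 days, both replicate 1, chosen by these labels and not by any measured value. No drug, transgene or mutation is named for either animal. The design text speaks of independent experiments with different rats at each time, and further arrays were not analysed here. With 1 array on each side there was no replicate, so no test was made, no p-value is given, and each difference is one between these 2 arrays.

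In balloon injury an inflated catheter is drawn along the vessel, which removes the endothelium and stretches the smooth muscle of the media. Smooth muscle cells that face such damage are known to lose contractile proteins, divide and migrate inwards, where they and the matrix they deposit form a neointima, while monocytes enter from the blood and the adventitia. Contractile genes in smooth muscle are driven by serum response factor with its partner myocardin, myeloid genes by ETS factors such as PU.1, and mitotic genes by elements that include the CCAAT box and the cell cycle homology region.

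Both arrays were of one design and came from one scan of one slide. Probes well above background made up 59.8% of the uninjured array and 66.7% of the day 21 array. The 75th percentile of the raw signal was lower in the uninjured artery (49.6 intensity units) than at day 21 (135 units). After scaling, the lowest level called well above background was -2.58 in the uninjured artery and -3.71 at day 21, so low genes were harder to detect in the former. A level below is the log2 signal minus that percentile, so that 0 is the 75th percentile of the array, and a difference is the day 21 level minus the uninjured level, in log2 units. The value after ± is the SD that replicate spots of a probe give for such a difference. It is technical and holds no spread between animals. Levels belong to 1 probe and are not compared between genes. Because the tissue was taken whole, fewer cells of a type and less RNA per cell cannot be told apart.

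Of 13833 genes with a symbol, 9420 were well above background on both arrays. Among these, 865 (9.18%) had a day 21 signal at least 2-fold above the uninjured one, 1285 (13.6%) had one at least 2-fold below it, and both kinds made up 22.8%. The median difference was -0.19, and the quartiles were -0.68 and 0.30. Larger differences ran mostly upward: 333 genes (3.54%) passed 4-fold in the higher direction and 179 (1.9%) in the lower. The counts given below for lists of genes, some of which share members, are read against these percentages. The share of higher genes among those 2-fold apart was 40.2%, but 77.1% with median scaling, 64.9% with cyclic loess, 55.6% with quantile normalization and 74.8% with normexp background correction. The median of all genes moved to 0.28 with median scaling and to 0.053 with cyclic loess, so small differences are read against that shift. A further 1266 genes were well above background at day 21 alone and 314 in the uninjured artery alone, and for these only a lower bound of the fold is given. It reached 2-fold for 232 (18.3%) of the former and 308 (98.1%) of the latter. These 2 shares depend on the unequal lowest levels called well above background (-2.58 uninjured, -3.71 at day 21). A gene seen in the uninjured artery alone, with a day 21 signal under -3.71, passes 2-fold by construction. The shares are therefore not compared.

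**Figure D1:**
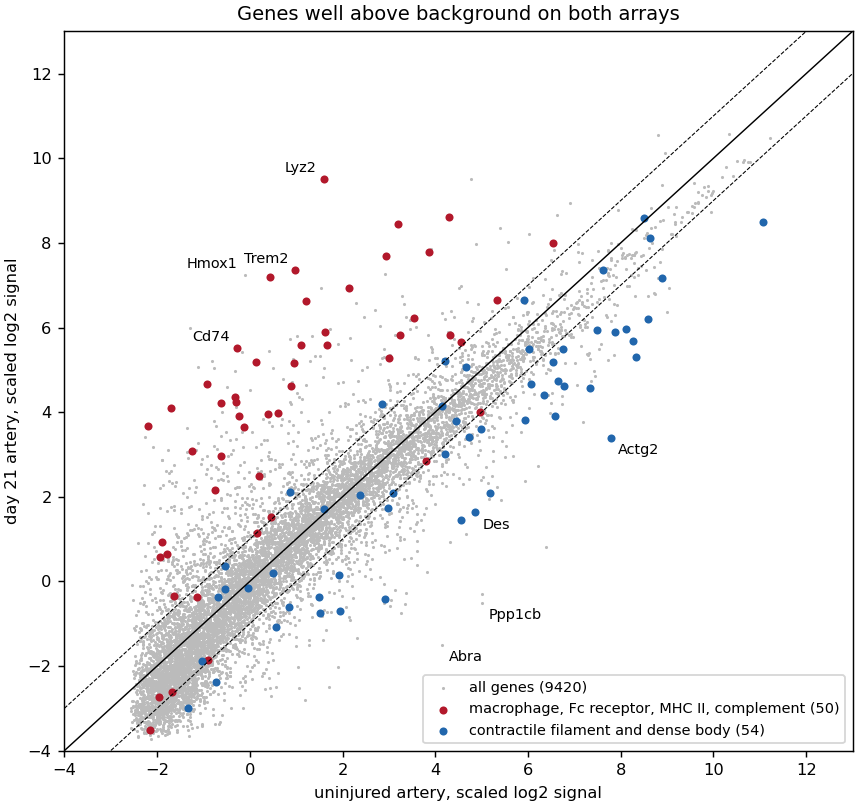
Scaled log2 signal of each gene well above background on both arrays, with the uninjured artery on the horizontal axis and the day 21 artery on the vertical axis; the solid line marks equal levels and the dashed lines a 2-fold difference. The contractile filament and dense body genes in blue lie mostly below the band at high uninjured levels, while genes of macrophages, Fc receptors, complement and MHC class II in red lie mostly above it.

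Genes that encode the contractile filaments of smooth muscle were lower at day 21, while the cytoplasmic actin genes were within 2-fold. Actg2, the enteric smooth muscle actin, was at 7.79 in the uninjured artery and 3.40 at day 21, a difference of -4.39 ± 0.13. The cardiac actin gene Actc1 went from 2.92 to -0.42 (-3.34 ± 0.16) and the skeletal one, Acta1, from 1.51 to -0.75 (-2.26 ± 0.17). By contrast the cytoplasmic actins Actg1 (-0.27) and Actb (0.072) differed by far less than 2-fold, with Actb at 8.50 and 8.58 on the 2 arrays. Coding sequences of actins are alike, so cross-hybridisation between these probes was not tested. Acta2, the actin usual for vascular smooth muscle, had no matched probe and was not analysed here.

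Of the myosin, tropomyosin and calponin genes 11 of 19 measured on both arrays were at least 2-fold lower and 2 higher (median -1.41). Calponin, Cnn1, which binds actin and restrains myosin, was at 4.57 and 1.44 on the uninjured and day 21 arrays (-3.12 ± 0.15). Myl9, the regulatory light chain of smooth muscle myosin, went from 7.33 to 4.57 (-2.76 ± 0.13), and its heavy chain gene Myh11 was at -2.68 ± 0.13 on the brighter probe and nearer 0 on the other of 2. The beta-tropomyosin gene Tpm2 differed by -2.57 ± 0.13 and Tagln, which encodes transgelin, by -2.39 ± 0.13. Their relatives outside muscle lay on both sides of 0. Tagln2 was at 2.85 and 4.19 (1.35 ± 0.14), Tpm4 differed by 0.42, and the non-muscle myosin gene Myh9 by 0.31. The non-muscle myosin gene Myh10 (-1.35 ± 0.13) and Cnn3 (-1.53 ± 0.13), a calponin of many cell types, were lower; both were singled out after their values were seen. Cnn3 and Myh10 came within 2-fold under at least 1 of the alternatives.

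Dense bodies, which anchor the thin filaments in smooth muscle as Z-discs do in striated muscle, and the intermediate filaments between them followed the contractile genes, with 16 of 25 at least 2-fold lower, 0 higher and a median of -1.37. Desmin (Des) was at 4.86 and 1.63, a difference of -3.23 ± 0.15, and its partner synemin (Synm) at -2.16 ± 0.13. The LIM proteins Pdlim3 (-3.02 ± 0.13) and Csrp2 (-2.59 ± 0.13), the cross-linker filamin A (Flna, -1.97 ± 0.13) and the adhesion molecule Mcam (-2.14 ± 0.13) were also more than 2-fold lower. Vim, which encodes the intermediate filament of mesenchymal cells and leukocytes, was at 5.91 and 6.65 (0.73), within 2-fold. Fhl2 (0.37) also stayed within 2-fold, and Pdlim5 was at 0.11 on the brighter of its 2 measured probes and at -1.65 on the other.

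Of the genes that set myosin phosphorylation, 5 of 21 were at least 2-fold lower and none higher (median -0.44, of the other sign in 1 of 10 alternatives). These were mostly parts of myosin phosphatase. Its catalytic subunit gene Ppp1cb was at 5.0 and -0.51 (-5.50 ± 0.15), read from a single probe. The 2 other catalytic subunits of protein phosphatase 1, Ppp1ca (0.29) and Ppp1cc (0.16), stayed within 2-fold. The targeting subunit gene Ppp1r12a differed by -1.19 ± 0.13, and Ppp1r14a, which encodes the phosphatase inhibitor CPI-17, by -2.28 ± 0.13. The light chain kinase gene Mylk was at -1.18 ± 0.19, whereas Rhoa, a GTPase that signals to the contractile filaments, was at -0.069. Mylk and Ppp1r12a came within 2-fold under at least 1 of the alternatives.

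Regulators of these genes differed less evenly: 4 of 12 factors that act with serum response factor were at least 2-fold lower and 1 higher. Abra, whose product frees myocardin-related factors to enter the nucleus, was at 4.14 and -1.5, the lowest difference of all genes measured on both arrays (-5.64 ± 0.18). Myocd itself went from 0.56 to -1.07 (-1.64 ± 0.19) and Srf was at -1.0 ± 0.13, the edge of the 2-fold limit. Prrx1, a homeobox gene of mesenchymal cells, was higher (1.31 ± 0.18). Myocd and Srf came within 2-fold under at least 1 of the alternatives.

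The CArG box (a pair of C, a run of A or T and a pair of G), to which serum response factor binds, was looked for in the RefSeq promoters (GRCr8) of the smooth muscle marker, contractile filament and dense body genes, in a window from 250 bases before the start to 50 after it, on both strands. It was present in 5 of 43 (11.6%), against 1.64% of all 27457 promoters of that length and 1.19% of those of the genes measured on both arrays. The motif was chosen with the expression values known. The 5 are shown because they include genes that were lower (Acta1, Actc1) and genes that were not (Actg1, Fhl2), with the box in capitals. Actg2, the actin gene with the lowest difference, held no box in this window.
Acta1: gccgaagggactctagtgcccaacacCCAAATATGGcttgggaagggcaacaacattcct
Actc1: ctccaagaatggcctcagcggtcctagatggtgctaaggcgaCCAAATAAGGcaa
Actg1: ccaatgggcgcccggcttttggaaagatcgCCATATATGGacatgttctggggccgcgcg
Fhl1: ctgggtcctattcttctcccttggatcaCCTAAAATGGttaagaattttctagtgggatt
Fhl2: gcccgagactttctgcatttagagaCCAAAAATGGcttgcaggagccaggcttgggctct
They lie on GRCr8 at chr19:68784255-68784314 (minus strand), chr3:121271813-121271867 (minus strand), chr10:106121012-106121071 (minus strand), chrX:139638366-139638425 (plus strand) and chr9:52954601-52954660 (minus strand), in the order printed. Acta1, Actc1 and Fhl1 were at least 2-fold lower at day 21, while Actg1 and Fhl2 with the same kind of box were within 2-fold. A CArG box can hold the letters CCAAT, which none of those printed does. A match of letters is a description and not a bound site.

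Small heat shock proteins, chaperones abundant in muscle that hold filaments under strain, were lower for 7 of 9 measured members (median -1.58). Hspb6, known as a relaxation-linked phosphoprotein of smooth muscle, was at 5.22 and 2.49 (-2.72 ± 0.14). Hspb1 went from 8.99 to 6.38 (-2.62 ± 0.13), and Cryab, the alpha B-crystallin gene, from 7.72 to 5.22 (-2.50 ± 0.13). Bag3, their co-chaperone in the turnover of filamin, was at -2.51 ± 0.13. Hspb8, the usual partner of Bag3, was not lower (0.48).

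**Figure D2:**
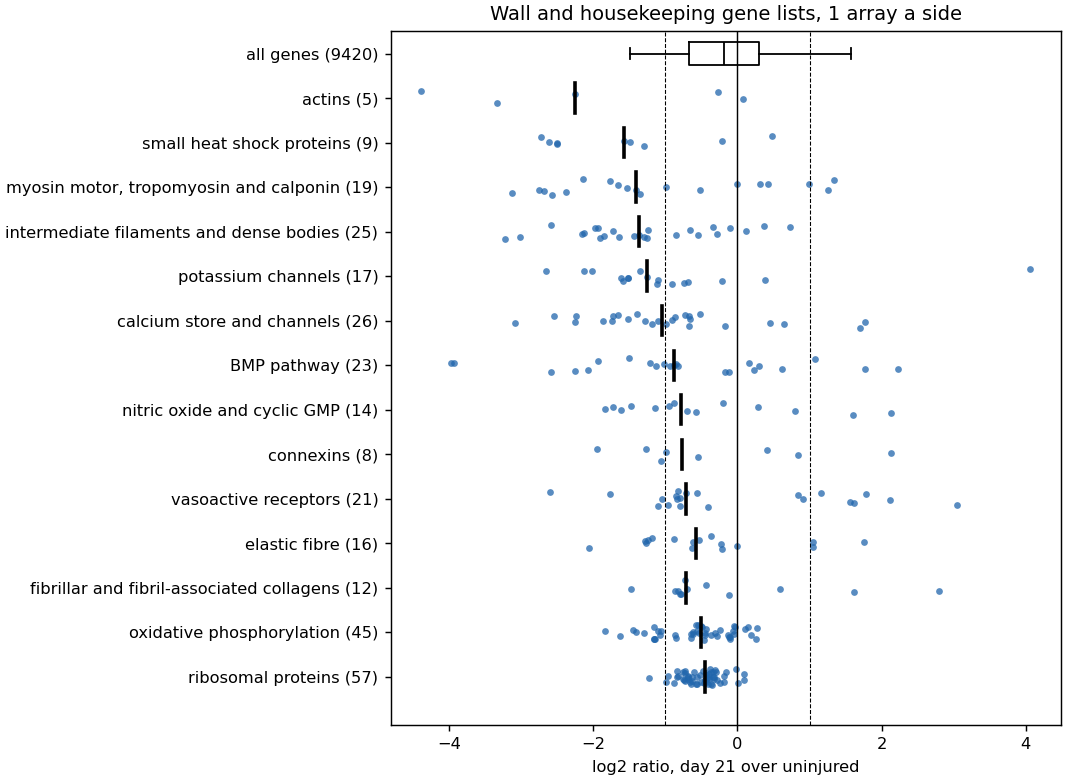
Log2 difference, day 21 minus uninjured, of each gene of 14 gene lists of the artery wall and of housekeeping functions, with the number of genes in brackets; points are genes, thick bars list medians, dashed lines a 2-fold difference, and the box over all genes gives the quartiles with whiskers from the 5th to the 95th percentile. Actins, small heat shock proteins, myosin and dense body lists have medians of -1.37 or lower, while ribosomal proteins sit in a narrow band near -0.45.

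Channels and stores that carry the calcium and potassium currents of smooth muscle were lower as well. Among calcium genes 13 of 26 were at least 2-fold lower and 2 higher (median -1.05). Casq2, the calcium buffer of the sarcoplasmic reticulum, was at 5.17 and 2.08 (-3.09 ± 0.14), and Cacnb2, a subunit of the voltage-gated channel, at -2.55 ± 0.16. The store release channel gene Itpr1 differed by -1.86 ± 0.14 and the cation channel genes Trpc1 and Trpc4 by -2.24 ± 0.15 and -1.75 ± 0.21. Orai1, the pore of store-operated entry in non-excitable cells, went the other way, from -1.82 to -0.041 (1.78 ± 0.29). So did Atp2b1, a plasma membrane calcium pump (1.69 ± 0.16). Orai1 and Trpc4 came within 2-fold under at least 1 of the alternatives.

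Potassium channel genes had 11 of 17 members at least 2-fold lower and 1 higher (median -1.25). The large-conductance channel, which relaxes smooth muscle, was lower in its beta subunit Kcnmb1 (1.95 to -0.71, -2.66 ± 0.17) and in its pore Kcnma1 (0.81 to -0.70, -1.52 ± 0.18). Kcnab1, a beta subunit of voltage-gated channels, was at -2.13 ± 0.28. The exception was Kcnn4, the intermediate-conductance channel of leukocytes, endothelium and dividing smooth muscle, which was at -0.62 and 3.44 (4.06 ± 0.19). Kcnma1 came within 2-fold under at least 1 of the alternatives.

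Receptors for vasoactive agents did not move one way: 6 of 21 were at least 2-fold higher and 4 lower (median -0.72, of the other sign in 1 of 10 alternatives). Htr2b, a serotonin receptor, went from -1.26 to 1.79 (3.05 ± 0.24). Accessory proteins of the calcitonin receptor-like receptor were split. Ramp2, which makes it a receptor for adrenomedullin, was at 0.089 and 2.21 (2.12 ± 0.19), and Ramp1, which makes it one for CGRP, at 7.35 and 4.74 (-2.61 ± 0.13). The angiotensin receptor gene Agtr1a was higher (1.16 ± 0.16) and the adrenergic receptor gene Adra1d lower (-1.76 ± 0.15).

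Extracellular ATP and its breakdown products act on the wall through P2 receptors, and their genes were also mixed (5 higher and 6 lower of 17, with a median that changed sign in 2 of 10 alternatives). P2rx1, the ATP-gated channel through which sympathetic nerves contract arteries, was at 3.35 and -0.54 (-3.88 ± 0.15). Alpl, the tissue-nonspecific alkaline phosphatase that degrades pyrophosphate, was at 3.36 and -0.27 (-3.64 ± 0.15). Enpp1, which makes pyrophosphate from ATP, was higher (1.76 ± 0.14), as was its relative Enpp3 (3.06 ± 0.15). P2ry12, an ADP receptor known from platelets and microglia, differed by 1.64 ± 0.21. P2ry12 came within 2-fold under at least 1 of the alternatives.

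In nitric oxide signalling the enzyme that makes the messenger and those that answer it parted. Nos3, the endothelial synthase, was at -0.25 and 1.35 (1.60 ± 0.20). The subunits of its receptor guanylate cyclase, Gucy1b1 (-1.72 ± 0.18) and Gucy1a2 (-1.62 ± 0.36), and the cyclic GMP kinase Prkg1 (-1.48 ± 0.35) were lower. Ddah1, which clears an inhibitor of the synthase, was at -1.84 ± 0.13, and Arg1, which competes for its substrate arginine, at 2.13 ± 0.19. Of the 14 genes of this list 2 were at least 2-fold higher and 5 lower. Connexins were divided in a like way: Gja5, the connexin of endothelium, went from 0.64 to 2.77 (2.14 ± 0.17), and Gja1, the common one, from 5.65 to 3.70 (-1.95 ± 0.13). Endothelial markers had a median difference of 1.73, and their part in the values of Nos3 and Gja5 was not tested. Gucy1a2, Gucy1b1 and Prkg1 came within 2-fold under at least 1 of the alternatives.

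**Figure D3:**
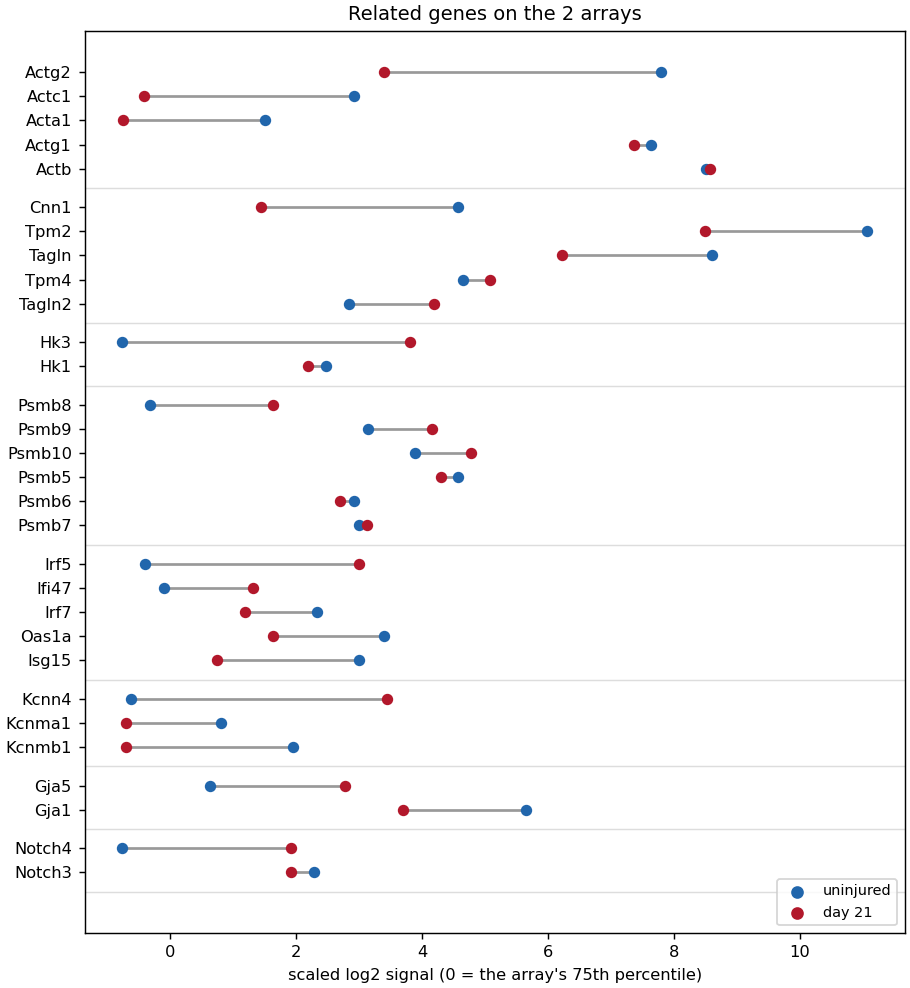
Scaled log2 signal of related genes on the uninjured array (blue) and the day 21 array (red), grouped by family; each line joins the 2 levels of 1 gene, and levels of different genes are not comparable. In each family at least 1 gene differed by more than 2-fold while a relative differed little or the other way, as Actg2 (-4.39) against Actb (0.072).

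At the other end of the range stood genes of phagocytes. Of 13 macrophage markers measured on both arrays, 11 were higher by 2-fold or more and none lower (median 4.13). Itgam and Msr1 were seen at day 21 alone, at least 16.5-fold and at least 10.1-fold higher, and Cd163 was well above background on neither array. Cd68 and Adgre1 are general markers of the lineage. Adgre1, the F4/80 antigen, was at -0.23 and 3.90 (4.13 ± 0.18), and Cd68 at 3.87 and 7.79 (3.92 ± 0.13). Markers of the macrophages that live in the normal wall were higher in 5 of 8 cases (median 1.28). Folr2, a folate receptor, was at 4.85 ± 0.17, whereas Lyve1, the hyaluronan receptor shared with lymphatic vessels, was at 1.27 ± 0.18 and F13a1 at 0.39.

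Receptors for antibody and their signalling chain formed the list with the highest median (4.30): 11 of 12 genes were at least 2-fold higher and none lower. The adaptors that carry the activating motif were Tyrobp, at 3.21 and 8.44 (5.23 ± 0.14), and Fcer1g, at 2.94 and 7.68 (4.74 ± 0.14). Trem2, a lipid receptor that signals through Tyrobp, differed by 6.38 ± 0.17 and the Fc receptor gene Fcgr2a by 4.54 ± 0.19. Fgr, a Src-family kinase that acts behind such receptors, differed by 4.33 ± 0.23. Inpp5d, which encodes the lipid phosphatase SHIP1 that dampens this pathway, was at -0.96.

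Another 11 of the 23 members of that list on the array were well above background at day 21 alone, as were 1266 of all 13833 genes. The bound reached 2-fold for 10 of these 11, against 18.3% of the 1266. The inhibitory receptor genes Fcgr2b (at least 108-fold higher) and Lilrb4 (at least 35.8-fold) had the highest bounds. Clec4a1 was at least 32.3-fold and Fcgr3a at least 32.0-fold higher. Fc receptor, Lilrb and Clec4 genes belong to families of close copies, so which copy gave the signal is uncertain. Downstream, the exchange factor Vav1 was at least 9.27-fold and the kinase Btk at least 6.90-fold higher.

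Leukocyte adhesion showed the same picture. Itgb2, the beta chain of the leukocyte integrins, was at least 149.8-fold higher, and Fermt3, the kindlin that activates it, went from 0.0053 to 4.53 (4.52 ± 0.18). Ligands of leukocyte integrins, Vcam1 (1.86 ± 0.13) and Icam1 (1.17 ± 0.14) were higher too. Among actin regulators typical of blood cells 9 of 15 were at least 2-fold higher and none lower (median 1.29). Coro1a was at -0.78 and 5.03 (5.81 ± 0.20), Capg at 3.93 ± 0.16, the plastin Lcp1 at 3.34 ± 0.24 and Rac2, the GTPase that also serves the oxidase, at 2.89 ± 0.27. Evl (-0.69) and Arhgap30 (-0.29) of the same list were within 2-fold.

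The sequence GAGGAAGT, a form of the site that PU.1 and other ETS factors bind, was searched on both strands of the same promoter windows of Fc receptor, macrophage and leukocyte actin genes. It occurred in 8 of 40 (20%), against 2.44% of all promoters and 2.54% of those of the genes measured on both arrays. Of these 8, 4 are shown, with the match in capitals on either strand, because they come from genes higher at day 21.
Vav1: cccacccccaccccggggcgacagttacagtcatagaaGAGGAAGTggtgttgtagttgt
Fcgr3a: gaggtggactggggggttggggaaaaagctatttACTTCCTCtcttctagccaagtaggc
Fmnl1: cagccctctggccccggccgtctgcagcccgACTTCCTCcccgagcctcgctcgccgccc
Arpc1b: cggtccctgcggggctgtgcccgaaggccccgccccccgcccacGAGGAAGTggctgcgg
Their places on GRCr8 are chr9:2248865-2248924 (plus strand), chr13:85782546-85782605 (plus strand), chr10:88615972-88616031 (plus strand) and chr12:14609489-14609548 (minus strand), as RefSeq gives them. Fmnl1 differed by 1.56 ± 0.21, but by 0.72 with normexp background, and Arpc1b by 1.25 ± 0.14. Inpp5d and Arhgap25, which were not higher, hold the same letters, as do Cyth4 and Parvg, which were well above background on neither array.

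**Figure D4:**
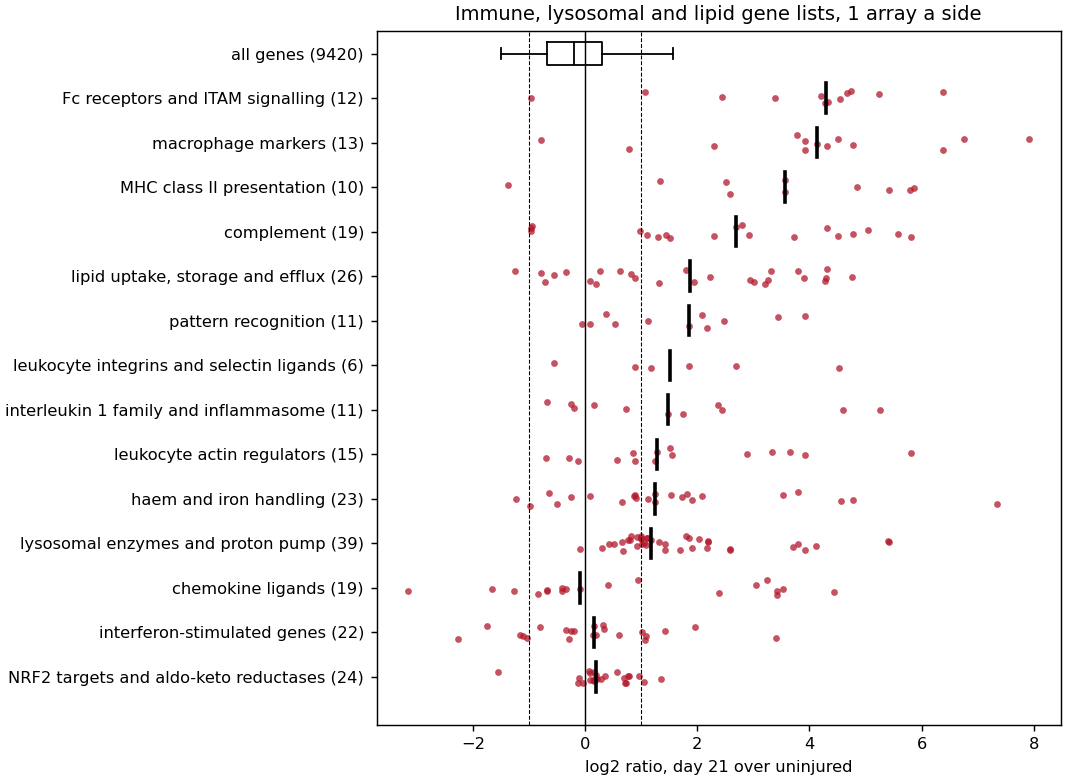
Log2 difference, day 21 minus uninjured, of each gene of 14 immune, lysosomal and lipid gene lists, drawn as in the plot of wall genes. Medians run from 4.30 for Fc receptors and ITAM signalling to -0.085 for the chemokine ligands, which spread from -3.16 to 4.43.

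Genes of the lysosome were mostly higher: 26 of 39 passed 2-fold and none was 2-fold lower (median 1.17). Ctss, the cathepsin that trims the invariant chain, was at 1.20 and 6.63 (5.42 ± 0.16). Laptm5, a lysosomal membrane protein of blood cells, differed by 5.40 ± 0.16 and cathepsin Z (Ctsz) by 4.11 ± 0.28. Acp5, the tartrate-resistant acid phosphatase known from osteoclasts, went from 1.89 to 5.60 (3.71 ± 0.15). Atp6v0d2, a subunit of the proton pump in the same cells, was at least 18.7-fold higher, and cathepsin E (Ctse) at least 16.9-fold. Tfeb, the master regulator of lysosomal genes, was at -0.088. Lysosomal, lipid, iron and oxidase genes are abundant in macrophages, whose markers had a median difference of 4.13, and the part of that list in these results was not tested.

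Lipid handling followed, with 15 of 26 genes at least 2-fold higher and 1 lower (median 1.87). Apoe, the lipoprotein ligand secreted by macrophages, was at 4.77 and 9.52 (4.75 ± 0.13). Pla2g7, which hydrolyses oxidised phospholipids, was at 4.31 ± 0.17, the fatty acid carriers Fabp5 and Fabp4 at 4.29 ± 0.15 and 3.91 ± 0.16, and lysosomal acid lipase (Lipa) at 3.80 ± 0.16. Ch25h, which makes 25-hydroxycholesterol, went from -1.34 to 2.93 (4.27 ± 0.24). The cholesterol exporters Abca1 (2.94 ± 0.19) and Abcg1 (3.26 ± 0.16), singled out after their values were seen, were higher as well. Cyp27a1 (0.084) and Fabp3 (0.20) were near 0, and Apoc2, the cofactor of lipoprotein lipase, was lower (-1.25 ± 0.21). In the cholesterol synthesis list 2 of 19 were at least 2-fold lower, Hmgcs1 (-1.66 ± 0.15) and Idi1 (-1.45 ± 0.14), and none higher. Apoc2, Hmgcs1 and Idi1 came within 2-fold under at least 1 of the alternatives.

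Haem and iron genes were higher in 13 of 23 cases and lower in 1 (median 1.25). Hmox1, which opens the haem ring, went from -0.10 to 7.23 (7.34 ± 0.18), and its constitutive isoform Hmox2 was at -0.50. Slc48a1, which moves haem out of the lysosome, was at 2.08 ± 0.17. Slc11a1, the phagosomal metal transporter, was at -1.89 and 2.88 (4.77 ± 0.29) and its relative Slc11a2, the general importer, at -0.65. The exporter ferroportin (Slc40a1) differed by 4.56 ± 0.35 on the brighter of its probes and by 1.39 on the one nearest 0. Hamp, the hormone hepcidin that causes its breakdown, was lower (-1.23 ± 0.26). Tf, which encodes transferrin, was at 3.80 ± 0.17. Hamp came within 2-fold under at least 1 of the alternatives.

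The phagocyte oxidase was higher in each part named here. Cybb, its catalytic subunit, was at -0.92 and 2.96 (3.88 ± 0.20), its partner Cyba at 3.18 ± 0.16 and the cytosolic Ncf4 at 3.30 ± 0.23, and Ncf1 was at least 24.7-fold higher. Nox1, the oxidase of smooth muscle, was at -0.34. Among enzymes that remove reactive oxygen, Prdx1 (1.35 ± 0.13) and the mitochondrial Sod2 (1.13 ± 0.19) were higher, Sod1 was at 0.19, and Sod3, the extracellular form made by smooth muscle, was lower (8.60 to 6.75, -1.85 ± 0.13). The list of aldo-keto reductases and targets of the oxidant-sensing factor NRF2 had 2 of 24 genes at least 2-fold higher and 1 lower. Its median was 0.20, and those shares were near or below the 9.18% and 13.6% over all genes. The 2 higher ones were Prdx1 and Nqo1 (1.04 ± 0.22). Hmox1 (7.34 ± 0.18) was counted with the haem genes and not in this list. The aldo-keto reductase gene Akr1b8 was seen at day 21 alone and was at least 153-fold higher, while its relative Akr1b7 was at -0.11. Nqo1 and Sod2 came within 2-fold under at least 1 of the alternatives.

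Interleukin 1 family and inflammasome genes were at least 2-fold higher in 6 of 11 cases and lower in none (median 1.47). Il18 was at -2.08 and 3.18 (5.26 ± 0.30) and Il1b at 2.37 ± 0.23, while their antagonists were higher too, Il1rn at 4.60 ± 0.19 and Il18bp at 1.75 ± 0.22. Caspase 1 (Casp1), which cleaves both cytokines, differed by 2.44 ± 0.23 and its adaptor Pycard by 1.47 ± 0.16. Il33, an alarmin of stromal nuclei, was at -0.19. Il18bp came within 2-fold under at least 1 of the alternatives.

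Chemokine ligands fell into opposite groups, with 7 of 19 at least 2-fold higher, 3 lower and a median of -0.085 that changed sign in 5 of 10 alternatives. Monocyte attractants were high: Ccl7 was at -0.30 and 4.13 (4.43 ± 0.19), Ccl12 at 3.53 ± 0.24 and Ccl2 at 3.43 ± 0.16, and Ccl3 was at least 23.0-fold higher. Neutrophil attractants Cxcl1 (3.43 ± 0.19) and Cxcl2 (3.05 ± 0.18) were also higher, but Cxcl6 was lower (-1.26 ± 0.44). Ccl21, which draws lymphocytes and dendritic cells to lymphatic vessels, was at 0.46 and -2.70 (-3.16 ± 0.30). Among receptors Cxcr4 was at 3.57 ± 0.21, while Ccr2, the receptor for Ccl2, was well above background on neither array. Cxcl6 came within 2-fold under at least 1 of the alternatives.

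Of Toll-like receptors of the cell surface Tlr2, which recognises lipoproteins, was at 1.21 and 4.64 (3.43 ± 0.16), Tlr6 at 2.18 ± 0.18, Tlr1 at 2.08 ± 0.29 and Tlr4 at 1.86 ± 0.24. Tlr5 was well above background at day 21 alone, at a level that bounds no fold. Of those of the endosome, Tlr3 was at 1.12 ± 0.17, Tlr7 at least 6.04-fold higher and Tlr9 at -0.047. In all 7 of 11 pattern recognition genes passed 2-fold upward and none downward. The adaptor Ripk2 was near 0 (0.097). Tlr1 came within 2-fold under at least 1 of the alternatives.

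Enzymes of eicosanoid synthesis differed between classes. Tbxas1, which makes the constrictor thromboxane, went from -1.12 to 5.08 (6.2 ± 0.22), and Ptgis, which makes the dilator prostacyclin, from 5.26 to 3.62 (-1.64 ± 0.13). Cyclooxygenase 1 (Ptgs1), upstream of both, was lower (-1.47 ± 0.14), and Ptgs2 was well above background on neither array. In the leukotriene branch Alox5ap was at -1.15 and 3.11 (4.26 ± 0.22), its enzyme Alox5 was at least 10.3-fold higher, and Ltc4s was at 1.36 ± 0.21. Over the list 5 of 15 genes were higher and 2 lower. Ltc4s and Ptgs1 came within 2-fold under at least 1 of the alternatives.

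Interferon-stimulated genes were split as well, with 6 of 22 at least 2-fold higher and 5 lower (median 0.15). Lower genes included several antiviral ones. Isg15 was at 3.0 and 0.74 (-2.26 ± 0.15), Oas1a at -1.75 ± 0.15 and the factor Irf7 at -1.15 ± 0.16. Higher genes included Irf5, a factor of macrophages (-0.40 to 3.0, 3.40 ± 0.19), Ifi47 (1.42 ± 0.19), the antiviral Ifit2 (1.07 ± 0.21) and Tap2 (1.08 ± 0.19), which supplies peptides to MHC class I. Ifit2, Irf7 and Tap2 came within 2-fold under at least 1 of the alternatives.

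Complement genes were higher in 15 of 19 cases and 2-fold lower in none (median 2.69). They covered the start of the classical pathway with C1qb (4.31 ± 0.13) and C2 (-1.71 to 4.10, 5.81 ± 0.27), the central C3 (-0.92 to 4.66, 5.58 ± 0.20) and the receptor C5ar1 (5.04 ± 0.18). The genes Cd46 (-0.95) and Cd59b (-0.97), which encode membrane regulators of complement, were not among them. MHC class II genes were led by RT1-Bb (5.86 ± 0.32) and Cd74 (5.78 ± 0.19), and 9 of 10 passed 2-fold. Ciita, the transactivator on which class II transcription depends, was the exception, at -2.14 and -3.51 (-1.37 ± 0.48). Of markers of macrophage state, Arg1 (2.13 ± 0.19), Chi3l1 (2.48 ± 0.29) and Clec10a (2.44 ± 0.21) were higher, and Nos2 was well above background on neither array. Tnf was well above background at day 21 alone, but at a level (-3.27) below its uninjured signal (-2.55), so no direction is given. Chi3l1 and Ciita came within 2-fold under at least 1 of the alternatives.

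Mitotic genes were higher at day 21 in 9 of 16 measured cases and lower in none (median 1.42). Cdk1 was at -1.35 and 3.06 (4.41 ± 0.24), Ccnb1, its cyclin, at 3.21 ± 0.31, and securin (Pttg1) at 2.65 ± 0.27. Stmn1, which destabilises microtubules, went from -1.21 to 2.39 (3.60 ± 0.23). A further 13 of the 31 on the array were well above background at day 21 alone, as were 1266 of all 13833 genes. The bound reached 2-fold for 7 of these 13, against 18.3% of the 1266. Those 7 were led by Ccna2 (at least 6.16-fold higher) and the spindle checkpoint kinase Ttk (at least 5.59-fold). Aurkb (-0.23), Tpx2 (-0.14) and Cdc20 (0.0083) stayed near 0. DNA replication genes were at least 2-fold higher in 5 of 24 cases and lower in none (median 0.11), among them Chaf1b (1.98 ± 0.21), Mcm3 (1.35 ± 0.24) and Cdc45 (1.26 ± 0.20). Cdc45 and Mcm3 came within 2-fold under at least 1 of the alternatives.

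Upstream, Ccnd1, the cyclin that answers growth signals in G1, was at -0.71 and 3.14 (3.84 ± 0.20), while Ccnd3 was at -0.79. The inhibitors Cdkn2c (1.71 ± 0.20) and Cdkn1b (1.11 ± 0.14) were higher and Cdkn1a was not (-0.57). The stress genes Gadd45a and Gadd45g were on opposite sides, at 1.35 ± 0.16 and -1.21 ± 0.13. Gadd45g came within 2-fold under at least 1 of the alternatives.

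Promoters of mitotic genes often pair CCAAT boxes with the cell cycle homology region TTTGAA near the start, and both were searched on both strands of the windows. TTTGAA was present in 17 of 25 (68.0%) mitosis and spindle promoters, against 18.1% of all promoters and 12.1% of those of genes measured on both arrays. CCAAT was present in 20 of 25 (80.0%), against 37.7% and 38.1%. Shown are 4 of them, 3 from genes that were at least 2-fold higher and Prc1, seen at day 21 alone at a level that bounds no fold. Both motifs are in capitals, on either strand.
Cdk1: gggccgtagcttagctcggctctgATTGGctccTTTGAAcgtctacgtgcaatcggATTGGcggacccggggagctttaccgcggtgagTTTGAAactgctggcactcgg
Pttg1: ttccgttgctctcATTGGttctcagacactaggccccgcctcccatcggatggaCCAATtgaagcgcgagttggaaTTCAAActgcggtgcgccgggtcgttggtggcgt
Plk1: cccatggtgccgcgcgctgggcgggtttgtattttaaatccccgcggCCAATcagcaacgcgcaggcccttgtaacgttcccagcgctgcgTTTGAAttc
Prc1: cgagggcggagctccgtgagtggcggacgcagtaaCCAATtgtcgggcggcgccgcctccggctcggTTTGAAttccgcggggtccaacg
RefSeq places them on GRCr8 at chr20:19265188-19265297 (plus strand), chr10:28406322-28406431 (minus strand), chr1:186147573-186147672 (plus strand) and chr1:143659396-143659485 (plus strand). Plk1, the kinase that drives mitotic entry, differed by 2.60 ± 0.26. Cdc20 (0.0083) and Ccnf (-0.30), which were within 2-fold, hold both motifs in the window, and Mad2l1 (0.33) holds TTTGAA. The motifs can share 1 letter at an end and do not overlap in the stretches printed. No binding data bear on them here.

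Collagen and collagen processing genes mostly stayed within 2-fold, and the few that did not lay on both sides of 0. Of 12 collagens 2 were at least 2-fold higher and 1 lower, with a median of -0.71 that changed sign in 2 of 10 alternatives. Col8a1, a short-chain collagen known from migrating vascular cells, was at -0.94 and 1.86 (2.80 ± 0.21). Col1a1 (-0.79) and Col3a1 (-0.73), the main collagens of the wall, were within 2-fold, and Col18a1 was lower (-1.47 ± 0.13). In collagen processing 2 of 22 genes were at least 2-fold higher, 2 lower and 18 within 2-fold (median 0.024). Those shares were near or below the 9.18% and 13.6% over all genes. Loxl2, a cross-linking oxidase, was at 2.49 ± 0.23 and Pcolce, an enhancer of procollagen cleavage, at 1.39 ± 0.13, against P3h2, a prolyl hydroxylase, at -2.48 ± 0.29. Col18a1 came within 2-fold under at least 1 of the alternatives.

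Elastic fibre genes were at least 2-fold lower in 5 of 16 cases and higher in 3 (median -0.58). The lower ones were microfibril genes and latent TGF-beta binding proteins, such as Mfap5 (6.51 to 4.45, -2.06 ± 0.13), Mfap4 (-1.28 ± 0.13) and Ltbp1 (-1.28 ± 0.13). Efemp1 was higher (1.75 ± 0.16), and Fbln5, which assembles elastin, was at -0.0052. The microfibril gene Fbn1 was higher too (1.05), but down to 0.097 among the alternatives. Basement membrane genes were lower in 4 of 12 cases, with the muscle laminin receptor Itga7 at -1.97 ± 0.13, and higher in Nid2 (1.66 ± 0.22). Fbn1, Ltbp1, Mfap4 and Nid2 came within 2-fold under at least 1 of the alternatives.

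Among proteoglycans and hyaluronan proteins 9 of 29 were at least 2-fold lower and 3 higher, with a median (-0.22) that changed sign in 4 of 10 alternatives. Tnfaip6, which links hyaluronan into inflammatory matrix, was at 1.28 and -1.5 (-2.78 ± 0.20). The small proteoglycans lumican (Lum, 2.19 ± 0.13) and osteomodulin (Omd, -2.14 ± 0.13) lay on opposite sides. Cd44, the hyaluronan receptor, was at 2.70 ± 0.14 on its brighter probe and below 0 on another. Cd44 came within 2-fold under at least 1 of the alternatives.

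Of the metalloproteinases and their inhibitors, 19 were measured on both arrays, with 2 at least 2-fold higher and 3 lower (median 0.11). Another 7 of the 29 on the array were well above background at day 21 alone, as were 1266 of all 13833 genes. The bounds were at least 371-fold for Mmp12, the macrophage elastase, at least 21.5-fold for Mmp7, at least 9.57-fold for Mmp9 and at least 8.12-fold for Mmp13. On both arrays, Mmp2, the gelatinase of mesenchymal cells, was at 7.73 and 7.83 (0.11), and the inhibitor Timp1 differed by -0.21. Adamts7, a protease that cleaves Comp, was higher (2.10 ± 0.18), as was Comp (1.02 to 4.45, 3.43 ± 0.17).

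Fibrinolysis and coagulation genes lay on both sides of 0. Plau, the urokinase gene, was at least 23.4-fold higher and its receptor gene Plaur at least 3.55-fold. Tissue factor (F3), which starts clotting, was at 3.58 and 1.36 (-2.22 ± 0.15), and Tfpi, which blocks it, at -1.49 and 0.92 (2.41 ± 0.26). Procr, the endothelial receptor for protein C, was higher (1.74 ± 0.20). The list as a whole had 3 higher and 7 lower of 20, with a median that changed sign in 3 of 10 alternatives.

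Genes of cartilage and bone were higher in 7 of 25 cases and lower in 6, and their median changed sign in 3 of 10 alternatives. Those higher included the bone matrix protein Spp1 (2.94 ± 0.13), the factor Runx1 (2.27 ± 0.19) and the collagenolytic cathepsin K (Ctsk, 1.70 ± 0.16). Alpl, given above, and Tnfrsf11b (-1.73 ± 0.13), the decoy that restrains osteoclasts, were lower. The osteoblast factor Sp7 stayed within 2-fold.

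In BMP signalling 10 of 23 genes were at least 2-fold lower and 3 higher (median -0.89), covering ligands, receptors and targets. Of ligands, Bmp2 went from 0.054 to -2.02 (-2.07 ± 0.24) and Gdf10 from 3.24 to 0.99 (-2.26 ± 0.15), whereas the stress-linked Gdf15 was higher (2.23 ± 0.27). Secreted modulators had the lowest values, Sostdc1 at 1.19 and -2.79 (-3.98 ± 0.30) and Vwc2 at 1.91 and -2.03 (-3.94 ± 0.22). Receptors were split: Bmpr2 was higher (1.77 ± 0.26), Bmpr1a was lower (-1.93 ± 0.15), and Bmpr1b, seen in the uninjured artery alone, was at least 5.30-fold lower. The target Id4 differed by -2.59 ± 0.14 and Id2 by 1.08 ± 0.15. Bmpr2 and Id2 came within 2-fold under at least 1 of the alternatives.

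TGF-beta genes were lower in 4 of 18 and higher in 2, with a median that changed sign in 2 of 10 alternatives. The isoform Tgfb1 was at -0.43 and 0.66 (1.1 ± 0.20) and Tgfb3 at 4.92 and 2.99 (-1.93 ± 0.14). Ccn2, a common target, was lower (-1.30 ± 0.13), and Inhba, an activin subunit, was higher (1.64 ± 0.34). In the Notch pathway the endothelial receptor Notch4 was at -0.77 and 1.92 (2.69 ± 0.21) and the sugar transferase Mfng at 2.57 ± 0.20, while Notch3, the receptor of smooth muscle, was at -0.36 and its target Hey1 at -1.21 ± 0.23. Ccn2, Hey1, Inhba and Tgfb1 came within 2-fold under at least 1 of the alternatives.

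Growth factor genes were lower in 7 of 26 and higher in 5, with a median that changed sign in 2 of 10 alternatives. The lower ones included fibroblast growth factors, Fgf10 at -1.84 ± 0.33, Fgf7 at -1.53 ± 0.43 and Fgf2 at -1.43 ± 0.34, with their receptor Fgfr2 at 4.24 and 2.26 (-1.97 ± 0.14). Igfbp3, which binds insulin-like growth factors, was at -0.42 and 3.34 (3.76 ± 0.19). Igf2 (1.45 ± 0.15) and its imprinted neighbour H19 (1.75 ± 0.19) were both higher. Fgf10, Fgf2 and Fgf7 came within 2-fold under at least 1 of the alternatives.

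Glycolysis and hypoxia genes were at least 2-fold higher in 11 of 30 cases and lower in 2 (median 0.48). The leukocyte hexokinase Hk3 went from -0.77 to 3.80 (4.57 ± 0.20) and the general Hk1 was at -0.29. Among glucose carriers Slc2a6 was at -1.69 and 1.76 (3.45 ± 0.28) and Slc2a1 at -0.30. For phosphofructokinase the liver form Pfkl was higher (1.17 ± 0.19) and the muscle form Pfkm lower (-1.13 ± 0.14). Oxidative phosphorylation genes were lower in 12 of 45 and higher in none (median -0.50, of the other sign in 1 of 10 alternatives), with Ndufs4 of complex I at -1.63 ± 0.27. Ndufs4, Pfkl and Pfkm came within 2-fold under at least 1 of the alternatives.

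In the proteasome the subunits that interferon induces stood above those they replace. Psmb8 was at -0.33 and 1.63 (1.95 ± 0.20), Psmb9 at 1.02 ± 0.14 and Psmb10 at 0.89. The standard subunits Psmb5 (-0.26), Psmb6 (-0.22) and Psmb7 (0.13), compared with them after their values were seen, were within 2-fold. Psma2, read from 1 probe, was lower (2.14 to -0.84, -2.98 ± 0.17), while every other alpha subunit gene measured was within 2-fold. The median over 30 proteasome genes was -0.16, and it changed sign in 3 of 10 alternatives. Ribosomal protein genes, 57 in all, had a median of -0.45, likewise of the other sign in 3 of 10 alternatives, and 1 of them, Rpl14 (-1.23 ± 0.13), was at least 2-fold lower. Psmb9 and Rpl14 came within 2-fold under at least 1 of the alternatives.

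Of immediate-early genes, which respond to handling as well as to signals, 6 of 23 were at least 2-fold lower and 2 higher, and their median changed sign in 5 of 10 alternatives. Atf3 was at 7.45 and 4.86 (-2.59 ± 0.13) and Nr4a3 at -2.3 ± 0.14, against Fos at 0.77 and Egr2 at 1.18 ± 0.19. In the clock list the repressor Nfil3 was at 3.61 and 0.72 (-2.89 ± 0.15), Bhlhe40 at 1.74 ± 0.17, and Per1 (0.48) and Nr1d1 (0.41) were within 2-fold. Hour of day and handling time at harvest are not given in the sources used here, and their part in these values was not tested.

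The label of the tissue was checked on 11 smooth muscle markers, all well above background on both arrays, with a median level of 4.57 in the uninjured artery and 2.08 at day 21. Of them 10 were at least 2-fold lower (median difference -2.39). Endothelial markers, from the layer that the balloon removes, were higher in 9 of 12 and lower in none (median level -0.81 and 1.06). The factors Sox18 (2.57 ± 0.18) and Sox17 (2.3 ± 0.28) and the tight junction gene Cldn5 (-0.62 to 1.92, 2.54 ± 0.20) were higher, Flt1 was at 0.034, and Pecam1 was at least 1.68-fold higher. Fibroblast markers were lower in 6 of 12 and higher in 2 (median -1.21), with Gpc3 at -2.32 ± 0.16 and Mfap5 given above, against Pdgfra at 1.41 ± 0.15. Lymphatic markers were lower in 3 of 5, and Prox1, the factor that defines those vessels, was well above background on neither array.

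Markers of tissue that can surround the artery differed between the arrays too. Striated muscle markers were at least 2-fold lower in 5 of 15 measured on both arrays and higher in none (median -0.90), led by Ckm at 3.25 and -0.75 (-4.01 ± 0.15). The other 10 were within 2-fold, among them the troponin genes Tnni2 (2.69 and 2.70, 0.010) and Tnnt3 (0.56) and the myoglobin gene Mb (-0.54). Another 5, among them Myh6 (at least 24.0-fold lower) and Myl1 (at least 8.35-fold), were seen in the uninjured artery alone, as were 314 of all 13833 genes. Acta1 and desmin, given above, are themselves among the 5 lower ones measured on both arrays. The other striated muscle values stand beside the lower actins Acta1 and Actc1, desmin, Alpl and Casq2, and their part in those results was not tested. Schwann cell and nerve markers were lower in 3 of 14 and higher in 1 (median -0.65). Adipocyte markers were split, 2 higher and 2 lower of 9, with Adipoq at 0.43.

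Markers of blood cells other than macrophages were nearer the detection limit. T and NK cell markers were higher in 4 of 10 and lower in none (median level -1.28 and 0.036), with Cd3g at 2.14 ± 0.25 and Cd8a at least 13.2-fold higher, whereas Cd3e was at -0.48 and Cd4 was well above background on neither array. Of B and plasma cell markers Mzb1 was at 2.75 ± 0.30, while Cd22 was well above background on neither array. Of neutrophil markers 1 of 4, Lcn2 (3.53 ± 0.25), which macrophages also express, was at least 2-fold higher, S100a9 was at 0.37, and Elane and Cxcr2 were below that limit on both arrays. Mast cell markers were lower in 2 of 4 and higher in none. Red cell markers were higher in Alas2 (2.24 ± 0.28) of 5. Alas2 and Cd3g came within 2-fold under at least 1 of the alternatives.

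**Figure D5:**
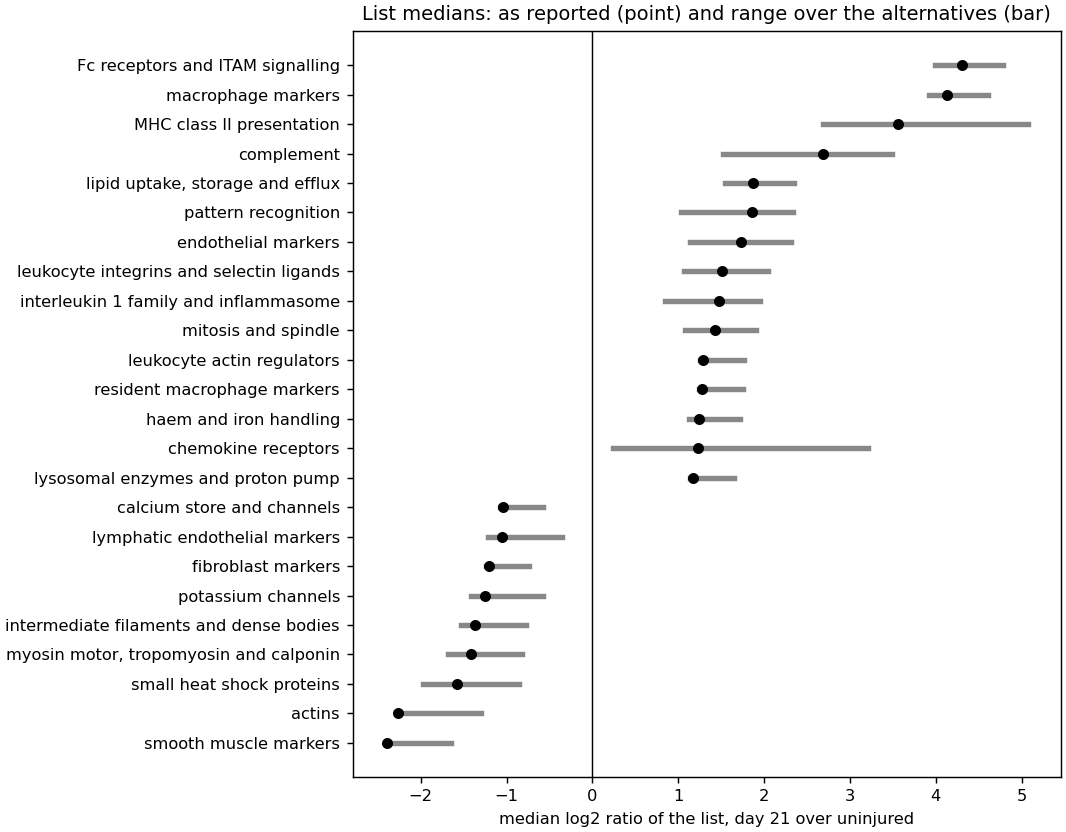
Median log2 difference, day 21 minus uninjured, of 24 gene lists with the main processing (points) and its range over the alternatives (bars); the vertical line marks no difference. Only lists with a main median at least 2-fold from no difference are drawn, a choice that favours ranges that do not cross 0. None of the drawn ranges crosses 0. The widest are those of chemokine receptors, from 0.24 to 3.21, and MHC class II presentation, from 2.69 to 5.08. Several of the lists not drawn changed sign, as chemokine ligands did in 5 of 10 alternatives.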

How the data were processed

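The authors hybridised Cy3-labelled total RNA and extracted spot intensity with Agilent Feature Extraction 10.7.3.1, per the file headers. The processed signal they deposited is background-subtracted and not normalized between arrays. The authors' deposited table holds log2 values in 9260 rows, of which 5301 name probes of this design. Its ratios correlated with those of the scanner signals at 0.96, so scale and direction were read from it (medians 7.64 and 7.64) while its centring stays unknown.

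Control spots and flagged spots (0.242% and 0.274% of 43379 gene spots) were left out, spots of a probe were averaged as log2, and the 75th percentile of each array was subtracted. Of 40989 probes compared, 17505 (42.7%) matched a RefSeq symbol (GRCr8) through their sequence accession. The array design is on rn4, and no coordinates were taken from it. A gene was read at its brightest probe. Of 1784 genes with several measured probes, 556 had probes of opposite sign and 14 by 2-fold each way, with an SD between probes of 0.57. A gene well above background on 1 array has a bound only: its signal there was divided by its own signal on the other array or, if larger, by the least signal called well above background on that array. Replicate spots of 263 probes gave the spread (median SD 0.21 and 0.17 log2 units). No spot was saturated, and the number of arrays limits the precision.

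The 10 alternatives covered scaling, background, filters, probe choice and the authors' table. One of them, the percentile over every gene spot, was added after the data were seen. The file lacks mean spot signals, so normexp (limma 3.58.1, R 4.3.3, offset 50) used median spot signals instead. The counting of genes was tested on simulated data. Genes, 65 lists, motifs and the rule for naming (up to 6 members in the main direction of a list and up to 3 others, and ranks 11 to 25 and the 10 largest bounds outside the lists) were chosen with earlier results of these data known. The promoter windows came from the RefSeq table for GRCr8. Where a symbol had no match, it was not analysed here.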

Additional observations from a re-analysis of the deposited data

How the results depend on the processing

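Genes at least 2-fold higher numbered 1644 with median scaling, 1354 of 13833 without the filter on dim probes and 525 of 4169 in the authors' table, against 865. Genes at least 2-fold lower numbered 489 with median scaling, 787 with quantile normalization, 611 with cyclic loess, 266 with normexp background, 3149 without the filter and 390 in the authors' table, against 1285. The share that was higher, 40.2%, was 77.1%, 55.6%, 64.9%, 74.8%, 30.1% and 57.4% in these 6, 37.4% with the percentile over probes well above background on both arrays and 38.0% with that over every gene spot, an alternative added after the data were seen. The median of all genes was 0.28 with median scaling and 0.053 with cyclic loess. Of 511 genes followed, giving 4899 values, 4 took the other sign in 1 alternative: Cp at -0.84 with the median over probes, Cx3cr1 at -0.035 and Ptges at -0.13 with normexp background, and Dock8 at -0.054 in the authors' table. Apart from the alternatives' own construction, the cause was not tested. The signal over background limits the low genes, and 2833 genes were well above background on neither array. No paired analysis was possible because the groups share fewer than 2 replicate numbers. With 1 array a group, no array could be left out.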

Other observations

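Outside the gene lists, the genes of rank 11 to 25 by difference held several that are not typical of phagocytes alone. Msln, the mesothelin gene of the serosal lining, was at -0.31 in the uninjured artery and 4.96 at day 21 (5.27 ± 0.19). Hsd11b1, which regenerates active glucocorticoid, went from -0.49 to 4.60 (5.09 ± 0.19) on the brighter of its probes, with the other at a difference of 5.03. Mt3, a metal-binding metallothionein known from brain, was at -0.18 and 5.42 (5.59 ± 0.18). Tmem176b (5.04 ± 0.17), the lysosomal glycoprotein gene Creg1 (4.97 ± 0.24) and Adap2 (4.86 ± 0.27, with a second probe at 2.14) were in the same range. Klra5 (5.67 ± 0.34) belongs to a family of close copies, so its identity is uncertain.

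Among the lowest of these ranks were metabolic and calcium genes of muscle, and the part of striated muscle in their values was not tested. Slc2a4, the insulin-regulated glucose carrier, was at 4.67 and 1.11 (-3.55 ± 0.15), and Hrc, a calcium-binding protein of the sarcoplasmic reticulum, at 5.42 and 1.93 (-3.49 ± 0.15). The phosphatase inhibitor gene Ppp1r1a (-3.60 ± 0.15), Arpp21 (-3.60 ± 0.27, with another probe within 2-fold), the kinase Srpk3 (-3.34 ± 0.15) and the heat shock gene Hspa1a (-3.65 ± 0.18) were of similar size. Mup4l4 (-3.57 ± 0.14), Mup5 (-3.50 ± 0.14) and Obp3 (-3.38 ± 0.15), secreted carriers of odorants known from liver and glands, came from a family of near-identical copies, and which copy gave the signal is uncertain.

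Of genes well above background at day 21 alone and outside the lists, Tnfrsf1b, a receptor for tumour necrosis factor, was at least 33.7-fold higher, Rgs1 at least 28.4-fold and Rnf128 at least 25.9-fold. Of those seen in the uninjured artery alone, the organic cation carrier Slc22a3 was at least 18.8-fold lower, Mmp27 at least 13.2-fold and the thyroid hormone carrier Slc16a10 at least 10.6-fold.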
